A study of Sus scrofa with 19 samples.

Results

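The interferon-stimulated genes were followed across 5 groups of pig left ventricular (LV) tissue as a list of 37 genes, taken by symbol. Of these, 31 were found by symbol in the table that the authors deposited and were carried by Ensembl ID to the raw count files, which hold 25879 genes. One model of all groups tested 13552 genes, among them 30 of the 31. IRF9 was removed by the filter on low counts. UBA7, MX2 and SAMD9 were found only through a separate table of gene names and are given outside the counts below. IFIT1, OAS1 and XAF1 were not matched and have no values here. The gene counted as IFIT3 (ENSSSCG00000010452) carries that symbol in the authors' table and the symbol IFIT1 in the table of gene names, so its name is uncertain.

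The RNA came from 19 female large white pigs with 1 library each. The groups were 5 pigs given free doxorubicin (DOX), an anthracycline against cancer, 5 given its liposomal form Myocet (MYO), 3 with a reperfused myocardial infarction (RemoLV), 3 with an artificial aortic isthmus stenosis (Hyper) and 3 controls (Control). Each of 3 cycles of DOX or MYO delivered 60 mg/m2, and these pigs were followed for 3 months. The coronary occlusion of RemoLV lasted 90 min, and RemoLV, Hyper and Control pigs were followed for 6 months. The labels call the controls sham-operated, whereas the methods of the study also call them untreated. Tissue of RemoLV came from the posterior wall, away from the infarct, and tissue of the other groups from the anterior wall. The DOX and MYO pigs were part of an earlier experiment, so that for these groups the treatment, the follow-up and the experiment cannot be told apart.

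The group names exist in 2 versions. The count files carry file labels, and the columns of the authors' table carry table names. Ranked by Spearman correlation, each column matched a single count file at 1 and every other file at 0.992 or less, and for 8 of the 19 libraries the names give different groups. The libraries labelled RemoLV are the Control columns of the table, the libraries labelled Control are its RemoLV columns, and DOX5 and MYO1 are exchanged. The labels were used here, the comparisons are also given under the table names, and which names are right was not settled. The tissue of the libraries labelled RemoLV also went against the LV label. MYL2, the regulatory light chain of ventricular myosin, stood at 18.6, 115 and 40 CPM (counts scaled to an equal library size) in these 3 libraries. The 5 atrial markers summed to between 9540 and 12800 CPM there, against 125 to 174 CPM in Control. They summed to 1140 to 2440 CPM in DOX, 780 to 1270 CPM in MYO and 214 to 1280 CPM in Hyper. Of the 5, 2 were higher than in Control in DOX and in MYO, beside 21% and 20.7% of all genes tested (edgeR). Likewise 2 were higher in DOX and MYO than in Hyper, beside 15.8% (edgeR). MYL7, the atrial regulatory light chain, read 736 to 2380 CPM in DOX and MYO and 59.1 to 111 CPM in Control. The 6 fibroblast markers summed to 8880 to 10100 CPM in the libraries labelled RemoLV and to 1770 to 2980 CPM in those labelled Control. Of these 6, 4 were higher and 0 lower, beside 23.1% and 24% of all genes (edgeR). COL1A1, a collagen chain of scar tissue, stood at 2050, 1830 and 1880 CPM against 622, 550 and 331 CPM. Comparisons that use these libraries therefore also compare tissue with an atrial marker profile with ventricular tissue. The comparison of DOX and MYO together with Hyper holds the same libraries under both sets of names and uses none of them, so it is given first.

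Type I interferons signal through a receptor on the cell surface to STAT2 and IRF9, which are subunits of the factor ISGF3. ISGF3 enters the nucleus and binds the interferon-stimulated response element (ISRE) near the start of many genes, whose products sense foreign nucleic acid, block viral replication or tune the response itself. In the heart these genes are known from viral myocarditis and from responses to self DNA and RNA after cell injury.

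The core of that element was searched for in the promoters, since the choice of members did not use sequence. Windows of 250 bases before to 50 after the gene start were read for 19559 protein-coding genes of RefSeq on Sscrofa11.1. The letters GAAANNGAAA, or TTTCNNTTTC on the other strand, occurred in 3.58% of all windows and in 18 of 35 member windows (51.4%). The search matched 35 of the 37 genes by symbol. Matches may overlap each other, and a match is a description of letters, not a measured binding site. The stretches below are shown because these members were called higher in DOX than in Control or, for ISG15, are the best known of the list. They run 5′ to 3′ in the direction of the gene, end before its start, and capitals mark the core in either direction.
ISG15, chr6:63363047-63363122, plus strand: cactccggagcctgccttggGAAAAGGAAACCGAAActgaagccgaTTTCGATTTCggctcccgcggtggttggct
ZBP1, chr17:57986187-57986236, minus strand: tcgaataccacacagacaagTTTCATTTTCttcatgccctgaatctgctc
OAS2, chr14:38847698-38847735, minus strand: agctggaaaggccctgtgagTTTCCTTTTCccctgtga
OASL, chr14:40917253-40917302, minus strand: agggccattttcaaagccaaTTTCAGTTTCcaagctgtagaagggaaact
IFIH1, chr15:68985146-68985188, minus strand: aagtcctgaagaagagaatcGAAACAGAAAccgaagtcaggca
BST2, chr2:60305085-60305147, plus strand: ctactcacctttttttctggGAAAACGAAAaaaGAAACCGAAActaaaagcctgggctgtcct
The windows of ADAR (gene at chr4:95154230-95197308, window chr4:95153980-95154279) and DHX58 (gene at chr12:20647698-20656691, window chr12:20647448-20647747) hold no such match, which says only that these letters are not in that window. Of the 11 members called higher in DOX than in Control, 5 held the core, and of 18 tested members with a window that were not called there, 11 did. OASL, near the limit of detection, is among the 11 called and among the 5 with the core.

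The general level of the members was summarised per library as the mean over 30 members of log2 CPM about each member's own mean. It was 0.37 ± 0.32 (SD, n = 5) in DOX, -0.0083 ± 0.42 (n = 5) in MYO, 0.02 ± 0.31 (n = 3) in RemoLV, -0.31 ± 0.24 (n = 3) in Hyper and -0.32 ± 0.24 (n = 3) in Control. The ranges of DOX and MYO overlapped widely. The highest libraries of all 19 were DOX5 at 0.73, with 29 of 30 members above their own mean, and MYO5 at 0.66, with 30 of 30. DOX1 and DOX3 followed at 0.56 and 0.41. DOX4, at -0.10, lay below every other DOX library, and MYO1, at -0.43, below every other MYO library. DOX5 and MYO1 are the libraries that the table names exchange, so that the highest library of all and the lowest MYO library change groups with the names.

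**Figure D1:**
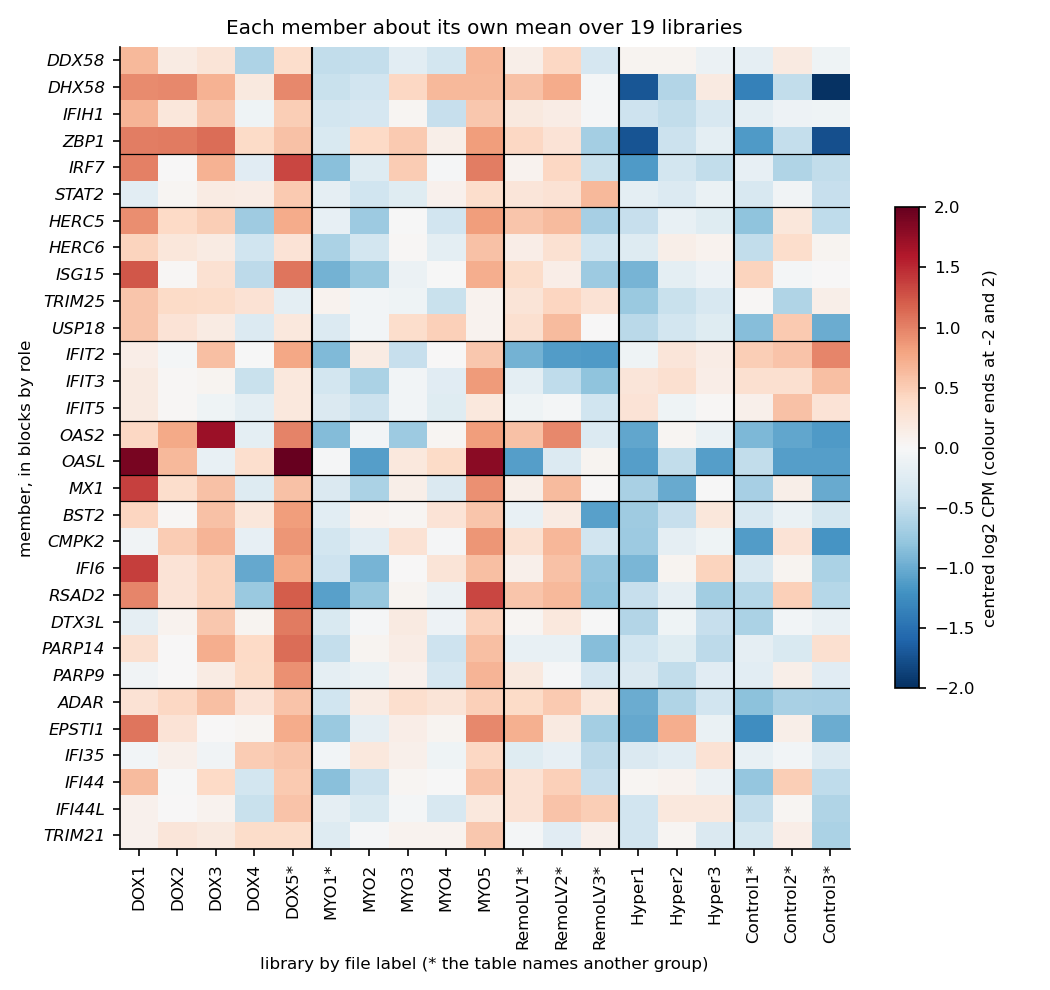
Log2 CPM of each of the 30 tested members (rows, in blocks by role) about its own mean, in each of 19 libraries (columns, by file label). Red is above and blue below the mean, and the asterisk marks the 8 libraries that the table assigns to another group. DOX5 and MYO5 are red in nearly every row, while the IFIT block is blue in the libraries labelled RemoLV and red in those labelled Control.

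**Figure D2:**
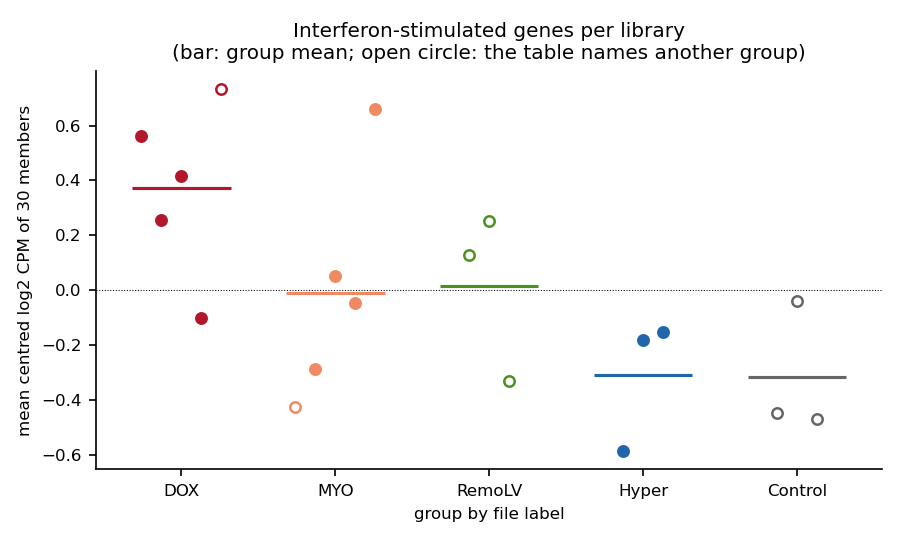
Mean centred log2 CPM of the 30 members in each library (points), with the group mean (bar), by file label. Open circles mark libraries that the table assigns to another group. DOX5 at 0.73 and MYO5 at 0.66 stand highest, and Hyper and Control lie below 0 throughout.

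The DOX and MYO libraries together had higher levels than Hyper of the nucleic acid sensors ZBP1, IFIH1 and DHX58 and of the RNA-editing enzyme ADAR. Neither form of the drug was tested alone against Hyper. In all, ADAR, ZBP1, TRIM25, IFIH1, IRF7, OASL, PARP14 and DHX58 were called higher, and no member was lower. These 8 of 30 members (26.7%), or 7 of 29 (24.1%) without OASL, stand beside 15.8% of all genes tested that were higher and 16.9% that were lower in this comparison (quasi-likelihood test of edgeR, adjusted p of at most 0.05 after Benjamini-Hochberg adjustment over all genes). The median log2 fold change was 0.56 for the members and 0.025 for all genes, and 27 of the 30 were positive. With the table names 7 of the 8 were called, all but PARP14 (adjusted p = 0.056 in edgeR).

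ADAR converts adenosine to inosine in double-stranded RNA and so marks it as self. It stood at 31.8, 34.9, 39.8, 31.5 and 38.7 CPM in DOX1 to DOX5 and at 19.8, 29.3, 32.9, 31.2 and 36.5 CPM in MYO1 to MYO5, against 13, 17.2 and 19.9 CPM in the Hyper libraries. Every library given a drug was above every Hyper library except MYO1, which lay level with the highest of them. The log2 fold change was 0.96 (SE 0.16, edgeR adjusted p = 0.000189), and ADAR kept its call without any single library.

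ZBP1, a sensor of Z-form nucleic acid that can trigger cell death, read 1.44, 3.76 and 4.43 CPM in Hyper, against 10.5, 10.6, 11.3, 6.66 and 7.73 CPM in DOX and 4.12, 6.79, 7.41, 5.54 and 9.22 CPM in MYO. All 10 values but that of MYO1 exceed all 3 Hyper values. Its log2 fold change was 1.29 (SE 0.34, edgeR adjusted p = 0.00792), and without Hyper1, the lowest library, 0.94 (edgeR adjusted p = 0.0694). Of the RNA helicases, DHX58, which tunes the other members of its family, was higher by 1.05 (SE 0.37, edgeR adjusted p = 0.0386) and IFIH1, the receptor of long double-stranded RNA, by 0.58 (SE 0.19, edgeR adjusted p = 0.025). DDX58, which reads the ends of foreign RNA, had a log2 fold change of 0.054 (edgeR adjusted p = 0.883). IFIH1 read 10.9, 10.3 and 11.7 CPM in Hyper, and MYO1, MYO2 and MYO4 lay within that range. The helicases did not move as a group.

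TRIM25, a ubiquitin ligase that acts on DDX58, was higher by 0.62 (SE 0.18, edgeR adjusted p = 0.0152), and IRF7, the transcription factor that amplifies interferon production, by 1.10 (SE 0.37, edgeR adjusted p = 0.0292). PARP14, an ADP-ribosyltransferase, was higher by 0.69 (SE 0.25, edgeR adjusted p = 0.038). OASL, an oligoadenylate synthetase relative without synthetase activity, was near the limit of detection, with 1 count in all Hyper libraries together, 49 in DOX and 19 in MYO. The ratio of DOX to Hyper was 29.5 with a 95% interval of 5.05 to 1190 from counting error alone. Much of this rested on DOX1 with 16 counts, DOX5 with 23 and MYO5 with 11. These 3 libraries alone carried OASL over the filter on low counts, so its call is no separate evidence, and counts are also given without it.

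The count of higher members rested on single libraries of the small Hyper group. It was 1 without Hyper1, 3 without Hyper2 and 5 without MYO5, beside 8%, 10.4% and 14.8% of all genes then tested, and at most 9 without any other library. Without Hyper1 or Hyper2 the share of higher members was thus no larger than that of all genes.

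**Figure D3:**
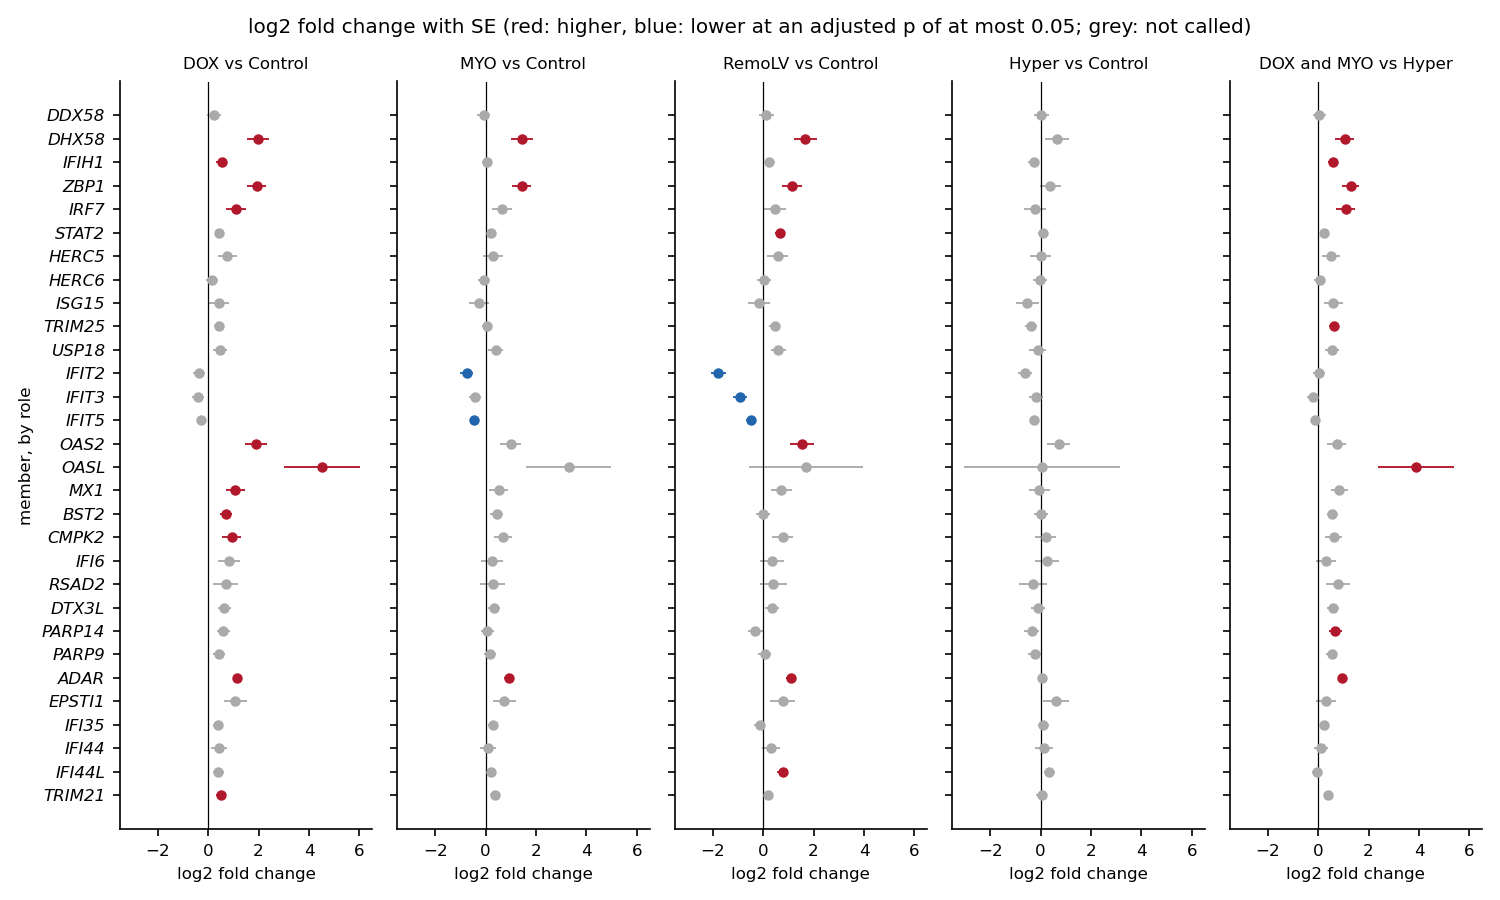
Log2 fold change with its standard error (points and bars) of the 30 tested members in 5 comparisons by file label, members ordered by role. Red members were higher and blue members lower at an adjusted p of at most 0.05, and grey members were not called. ADAR, ZBP1 and DHX58 are red in the panels of DOX, MYO and RemoLV, and no member is coloured in the panel of Hyper against Control.

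Against Control, the DOX libraries held more RNA of the sensors ZBP1, DHX58 and IFIH1, of the effectors OAS2 and MX1 and of ADAR. In DOX 11 of 30 members (36.7%), or 10 of 29 (34.5%) without OASL, were higher and 0 were lower, where 21% of all genes tested were higher and 21.1% lower (edgeR, adjusted p of at most 0.05). The median log2 fold change was 0.56 over the members and 0.031 over all genes, and 27 of 30 were positive. The 3 that were not are the IFIT genes. DESeq2 called 13 members higher and 0 lower, beside 21.1% and 22.9% of all genes. At an unadjusted p under 0.05 edgeR gave 17 higher and 0 lower, beside 25.5% and 24.9% of all genes.

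ADAR read 14.7, 16.5 and 16.4 CPM in the libraries labelled Control, below every DOX library, and was higher by a log2 fold change of 1.16 (SE 0.17, edgeR adjusted p = 6.18e-05). ZBP1 read 2.24, 3.62 and 1.41 CPM in Control and was higher by 1.93 (SE 0.38, edgeR adjusted p = 0.00069). DHX58 stood at 8.92, 9.07, 7.53, 5.26 and 9.08 CPM in DOX and at 1.72, 3.21 and 1.06 CPM in Control, a log2 fold change of 1.97 (SE 0.43, edgeR adjusted p = 0.00137). For these genes DOX and Control did not overlap, and each call held without any single library.

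OAS2, which makes the oligoadenylates that switch on the ribonuclease RNase L, read 64.3, 82.4, 159, 42.4 and 96.4 CPM in DOX against 26, 23.4 and 22.1 CPM in Control. Even the lowest DOX library lay above Control, although the DOX libraries varied widely, at 88.9 ± 44.1 CPM (SD, n = 5). Its log2 fold change was 1.90 (SE 0.43, edgeR adjusted p = 0.00209). OASL had 1 count in all of Control and 49 in DOX, a ratio of 30.6 with a 95% counting interval of 5.24 to 1230.

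MX1, a dynamin-like GTPase that traps viral nucleocapsids, stood at 48, 23.7, 27.7, 15.5 and 27.6 CPM in DOX and at 11.6, 20 and 9.1 CPM in Control. DOX4 lay below Control2, so the groups overlapped. The log2 fold change was 1.07 (SE 0.38, edgeR adjusted p = 0.0307), and the adjusted p was 0.148 without Control3 and 0.103 without Control1. Of the other called members, IRF7 was higher by 1.10, CMPK2, a mitochondrial nucleotide kinase, by 0.93 (edgeR adjusted p = 0.0499), BST2, which tethers budding virions to the cell, by 0.71, IFIH1 by 0.53 and TRIM21, an intracellular antibody receptor, by 0.51. Each of these 5 lost its call without at least 1 library, CMPK2 without any of 13.

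ISG15, RSAD2 and STAT2 were not called in DOX. ISG15, a ubiquitin-like protein that is joined to other proteins, read 31.7, 13.5, 16.5, 9.23 and 28.1 CPM in DOX and 18.1, 13 and 13.3 CPM in Control. Its log2 fold change was 0.42 (SE 0.39, edgeR adjusted p = 0.409), less than the spread among the DOX libraries. RSAD2 (viperin), which makes a chain-terminating nucleotide, read 48.6, 29.8, 33.4, 14.7 and 57 CPM in DOX and 16.6, 34.4 and 16.4 CPM in Control, with a log2 fold change of 0.70 (SE 0.50, edgeR adjusted p = 0.268). STAT2 had 0.43 (SE 0.17, edgeR adjusted p = 0.0544). The other tested members of the ISG15 system, namely the ligases HERC5 (0.76) and HERC6 (0.16), TRIM25 (0.44) and the ISG15 protease USP18 (0.48), were positive in log2 fold change and not called. So were DDX58, IFI6, PARP9, PARP14, DTX3L, IFI44, IFI44L, IFI35 and EPSTI1, with log2 fold changes of 0.24 to 1.08. EPSTI1 and DTX3L were called by DESeq2.

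The count in DOX depended on the names and on the small Control group. It was 4 without Control3, 5 without Control1 and 6 without DOX5, and it was 6 without both exchanged libraries. In the same order, 13%, 16.3%, 20.4% and 20.1% of all genes were higher, so that the share of members lay close to that of all genes in each. Control1 and Control3 also stood apart from Control2 in other genes. HBB, a haemoglobin chain, read 337 and 325 CPM in them and 35.1 CPM in Control2, and SOCS3, an inhibitor of cytokine signalling, 90.9 and 88.4 CPM against 2.38 CPM, with DOX1 at 70.1 CPM. Their part in the count was not tested. By table name 1 member, IFIT2, was higher in DOX than in Control, beside 15% of all genes, and 0 were lower, beside 14.6%. The median log2 fold change of the members was then 0.10, and ADAR changed sign to -0.11 (edgeR adjusted p = 0.677). That fit sets DOX against the libraries with the atrial marker profile and holds MYO1 in place of DOX5. The comparisons with Control that follow share the same 3 Control libraries with this one, so their calls are not independent of it.

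In MYO, 3 of 30 members (10%) were higher than in Control and 2 (6.67%) lower, against 20.7% and 21.7% of all genes tested (edgeR, adjusted p of at most 0.05). Both shares lie below those of all genes. The median log2 fold change was 0.28, against 0.019 over all genes, and 24 of 30 were positive. Without MYO5 it was 0.099 with 17 of the 29 members then tested positive, and without Control2 it was 0.48. ADAR was higher by 0.92 (SE 0.17, edgeR adjusted p = 0.00043), ZBP1 by 1.43 (SE 0.38, edgeR adjusted p = 0.00556) and DHX58 by 1.44 (SE 0.42, edgeR adjusted p = 0.0111, 0.0722 without Control3). DHX58 stood at 3.33, 3.46, 6.14, 7.27 and 7.28 CPM in MYO, so that MYO1 and MYO2 lay just above the highest Control library. OAS2, at 26.6, 46.6, 29.3, 49.9 and 86.6 CPM, had a log2 fold change of 1.00 (SE 0.42, edgeR adjusted p = 0.0607).

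IFIT2 and IFIT5, which bind foreign RNA and belong to a tandem gene family, were the members lower in MYO. IFIT2 stood at 11.8, 24.7, 15.9, 22.2 and 32 CPM in MYO and at 31.1, 32.9 and 43.7 CPM in Control, a log2 fold change of -0.75 (SE 0.25, edgeR adjusted p = 0.0199, 0.123 without Control3). IFIT5 stood at 26.4, 23.9, 31, 27.3 and 37.5 CPM against 34.4, 48.3 and 39 CPM, a log2 fold change of -0.48 (SE 0.15, edgeR adjusted p = 0.0159, 0.0988 without Control2). In both cases MYO5 alone overlapped Control. The count of lower members was 1 without Control2 or Control3, beside 22.8% and 14.9% of all genes, and that of higher members was 6 without Control2, beside 22.9%. By table name 0 members were lower, beside 14.4% of all genes, and 2 were higher, beside 14.8%, namely IFIT2 by 1.33 (edgeR adjusted p = 0.00165) and IFI35 by 0.56 (edgeR adjusted p = 0.029). ISG15 (-0.26, edgeR adjusted p = 0.624), MX1 (0.51, 0.283), RSAD2 (0.27, 0.683) and STAT2 (0.22, 0.324) were not called in MYO.

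In the libraries labelled RemoLV, ADAR, OAS2, STAT2, IFI44L and the sensors DHX58 and ZBP1 were higher and the 3 tested IFIT genes lower than in Control, while the sensors DDX58 and IFIH1 were not called. Here 6 of 30 members (20%) were higher and 3 (10%) lower, beside 23.1% and 24% of all genes tested (edgeR, adjusted p of at most 0.05), so that the share of higher members lay near that of all genes. IFIT2 stood at 11.4, 10.1 and 9.98 CPM against 31.1, 32.9 and 43.7 CPM in Control. The 3 values are nearly equal and lie below those of all 16 other libraries, of which MYO1 at 11.8 CPM was the nearest. The log2 fold change was -1.77 (SE 0.29, edgeR adjusted p = 9.81e-05), and the call held without any single library. The gene counted as IFIT3 had a log2 fold change of -0.90 (SE 0.28, edgeR adjusted p = 0.0122), and IFIT5 had -0.50 (SE 0.17, edgeR adjusted p = 0.0222). Without RemoLV3, IFIT2 alone was called lower, beside 20.7% of all genes.

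ADAR read 33.9, 37.4 and 30.7 CPM in RemoLV and was higher than in Control by 1.10 (SE 0.19, edgeR adjusted p = 0.000128). DHX58 read 6.97, 7.78 and 4.46 CPM, higher by 1.67 (SE 0.46, edgeR adjusted p = 0.00576). STAT2, the ISGF3 subunit with the activating domain, read 25.9, 26.7 and 34.4 CPM in RemoLV against 17.5, 20.8 and 15.9 CPM in Control, higher by 0.68 (SE 0.19, edgeR adjusted p = 0.00737). None of these overlapped Control. IFI44L, a gene of unclear function that interferon induces, was higher by 0.77 (edgeR adjusted p = 0.00904, 0.0532 without Control3), OAS2 by 1.54 (edgeR adjusted p = 0.00998, 0.0503 without RemoLV2) and ZBP1 by 1.15 (edgeR adjusted p = 0.0276, 0.128 without Control3). ISG15 (-0.15, edgeR adjusted p = 0.801), MX1 (0.73, 0.154) and RSAD2 (0.40, 0.563) were not called. Under the table names these libraries are the controls, and every sign here turns: 3 members, the IFIT genes, were higher and 6 lower, beside 24% and 23.2% of all genes. The atrial and ventricular markers move with the same libraries, with 5 of 5 atrial markers higher and 5 of 5 ventricular ones lower, and their part in these differences was not tested.

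**Figure D4:**
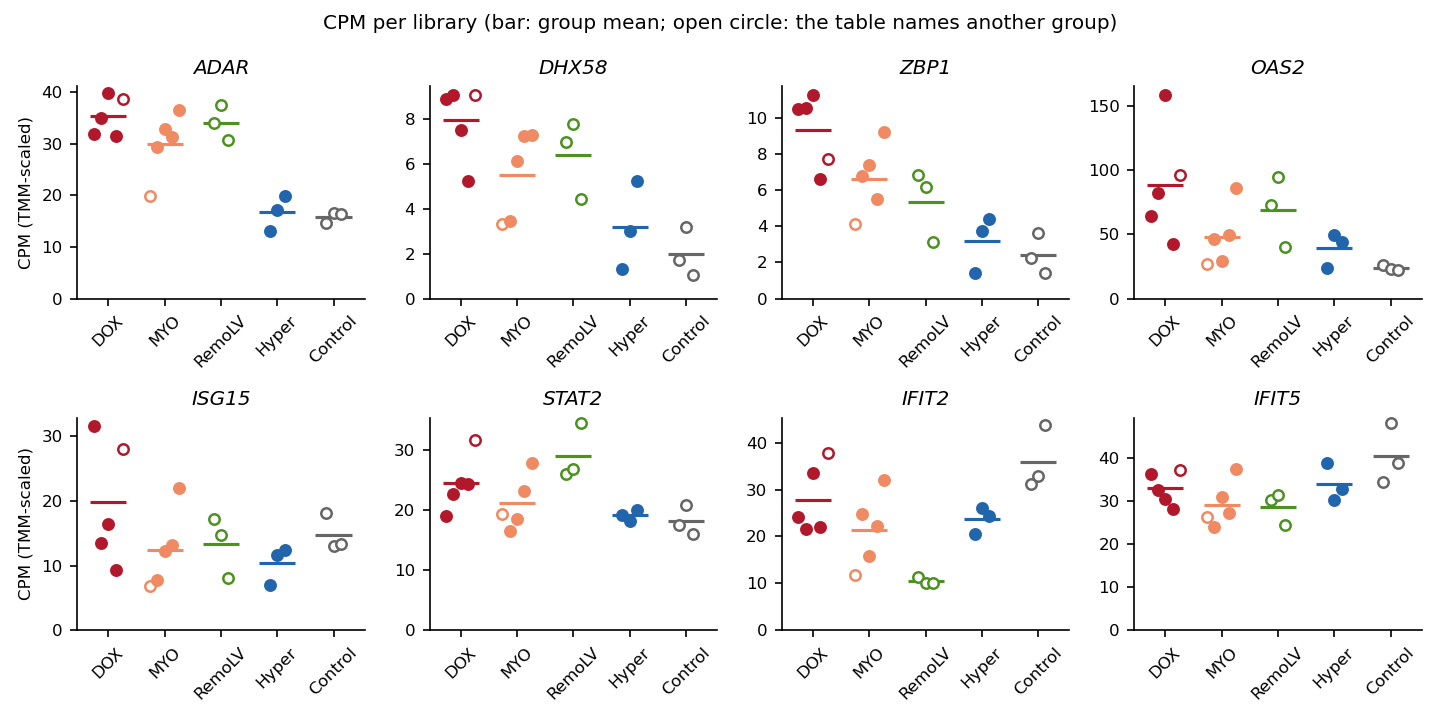
TMM-scaled CPM of 8 members in each library (points) with the group mean (bar), by file label. Open circles mark libraries that the table assigns to another group. ADAR lies between 13 and 19.9 CPM in Hyper and Control and reaches 39.8 CPM in DOX, while IFIT2 lies between 9.98 and 11.4 CPM in the libraries labelled RemoLV and between 31.1 and 43.7 CPM in those labelled Control.

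No member was called between Hyper and Control. Of the 30 members 0 were higher and 0 lower by the edgeR quasi-likelihood test, as were 0% and 0% of all genes. DESeq2 called 0 members as well, while it called 105 of all genes higher (0.775%) and 207 lower (1.53%). The share of all genes depended on single libraries. Without Control2 edgeR called 9.32% of all genes higher and 9.08% lower, and without Hyper1 2.39% and 3.21%, again with 0 members called. With p under 0.05 before adjustment, edgeR gave 0 members higher and 1 lower, beside 8.29% and 9.55% of all genes. The lower one was IFIT2, with a log2 fold change of -0.60 (SE 0.28, edgeR adjusted p = 0.27). It read 20.6, 26 and 24.4 CPM in Hyper, all below the 3 Control libraries. The median log2 fold change of the members was 0.0054 and that of all genes 0.0135, and 16 of 30 were positive. STAT2 (0.081, edgeR adjusted p = 0.855), MX1 (-0.056, 0.962), RSAD2 (-0.30, 0.802) and ISG15 (-0.52, 0.545) were not called. Under the table names, where Hyper is set against the libraries with the atrial marker profile, 2 members were higher and 3 lower, beside 18.7% and 17.2% of all genes, with IFIT2 higher by 1.17 (edgeR adjusted p = 0.0057) and ADAR at -1.03 (edgeR adjusted p = 0.000575).

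DOX and MYO, free and liposomal forms of the same drug at the same dose and follow-up, did not differ in any single member beyond the spread between pigs. By the edgeR quasi-likelihood test 0 members were higher and 0 lower, as were 0% and 0% of all genes tested, and DESeq2 called 0 members, beside 0% and 0.0148% of all genes. All 30 members nevertheless had a positive log2 fold change, while 6808 of all 13552 genes did. The median was 0.34 for the members and 0.0017 for all genes. At an unadjusted p under 0.05, 4 members were higher and 0 lower, next to 535 genes higher and 425 lower of all genes. These were IFIH1 with a log2 fold change of 0.47 (SE 0.17, edgeR adjusted p = 0.692), OAS2 with 0.90 (SE 0.35, 0.695), PARP14 with 0.53 (SE 0.22, 0.695) and TRIM25 with 0.39 (SE 0.17, 0.698).

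IFIH1 stood at 23.6, 17.1, 21.4, 13.7 and 20.7 CPM in DOX and at 11.3, 11.6, 15, 10.6 and 21.4 CPM in MYO. MYO5 lay among the DOX libraries and DOX4 among the MYO libraries. PARP14 stood at 22.3, 17.9, 29.5, 23.5 and 38.8 CPM against 12.8, 18.5, 19.7, 13.3 and 27.1 CPM, again with MYO5 among the DOX values. In every one of the 30 members the ranges of DOX and MYO overlapped. ISG15 had a log2 fold change of 0.67 (SE 0.34, edgeR adjusted p = 0.717), MX1 of 0.56 (SE 0.32, 0.735), RSAD2 of 0.43 (SE 0.42, 0.859) and STAT2 of 0.21 (SE 0.15, 0.787).

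The size of this shift rested on the 2 exchanged libraries, and its direction on the group they are given to. The median log2 fold change was 0.23 without MYO1 and 0.24 without DOX5. Without both it was 0.094 over the 29 members then tested, and 25 were positive. Under the table names it was -0.10, and 9 of 30 were positive. TRIM25, at 9.17, 8.06, 8, 7.58 and 5.38 CPM in DOX and 6.5, 5.96, 5.78, 4.5 and 6.51 CPM in MYO, kept its sign, with 0.48 (SE 0.15, edgeR adjusted p = 0.481) under the table names. It is also the member that followed the others least. Leaving out MYO5, the MYO library with the highest member level, raised the median to 0.56.

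**Figure D5:**
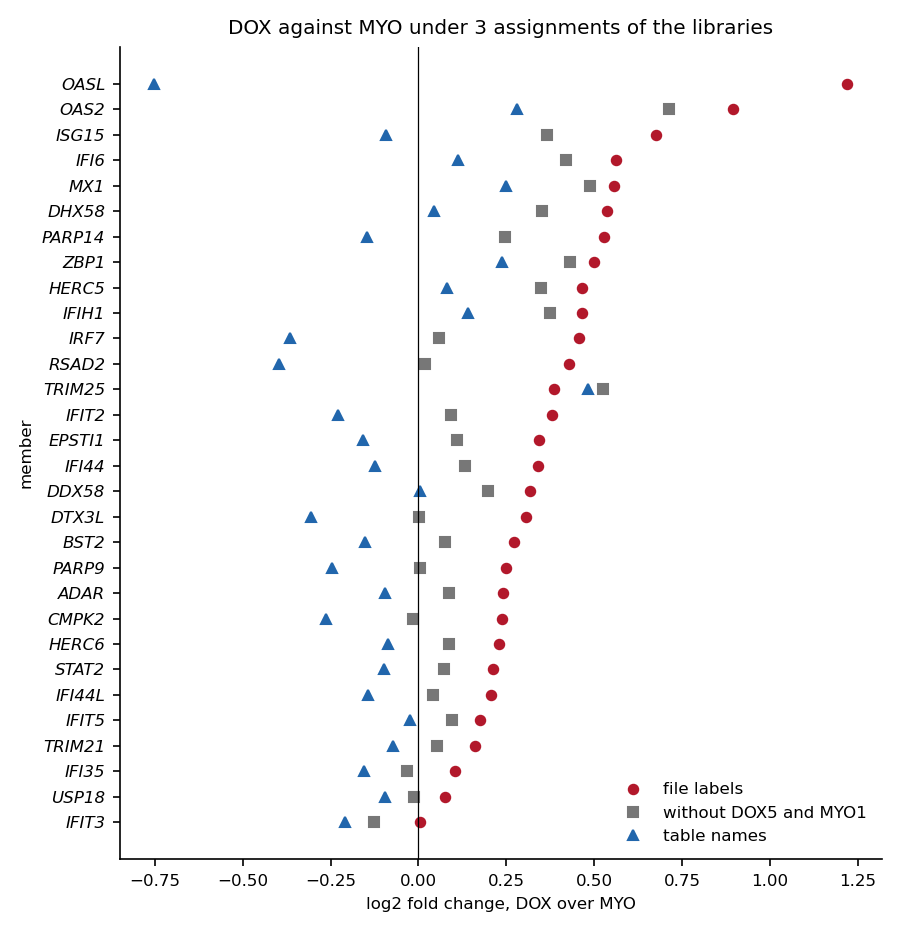
Log2 fold change of DOX over MYO (horizontal axis) for each of the 30 members (rows), by file label (circles), without DOX5 and MYO1 (squares) and by table name (triangles). All circles lie right of 0, the squares lie nearer to it with a median of 0.094, and 9 of the 30 triangles lie right of it.

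Set against the mean of the other groups, which holds the same libraries under either set of names, DOX and MYO had 11 of 30 members higher (36.7%), or 10 of 29 (34.5%) without OASL, and 0 lower, beside 23.7% and 21.8% of all genes tested (edgeR, adjusted p of at most 0.05). The median was 0.35, and 0.36 under the table names, with 27 of 30 positive by file label. ADAR was higher by 0.64 (SE 0.10, edgeR adjusted p = 9.36e-05), ZBP1 by 1.17 (SE 0.23, edgeR adjusted p = 0.000443), DHX58 by 0.93 (SE 0.25, edgeR adjusted p = 0.00546) and BST2 by 0.57 (SE 0.16, edgeR adjusted p = 0.00686), and OASL was called as well. BST2 read 45.5, 34.3, 50.7, 39.6 and 60.3 CPM in DOX, 29.2, 35.7, 34.9, 41 and 49.8 CPM in MYO, and 16 to 39.5 CPM in the 9 other libraries. The groups overlap, with Hyper3 at 39.5 CPM above most MYO libraries. PARP14 (0.56), IRF7 (0.79), OAS2 (0.70), DTX3L (0.40), a ubiquitin ligase that works with PARP9, TRIM21 (0.35) and IFI35 (0.35) were also higher. IFI35 stood at 9.40 to 14.6 CPM in DOX and 9.35 to 13.2 CPM in MYO. ISG15 (0.31, edgeR adjusted p = 0.331), MX1 (0.57, 0.0538), RSAD2 (0.45, 0.238) and STAT2 (0.071, 0.618) were not called. The libraries with the atrial marker profile are among the other groups here. They read 30.7 to 37.4 CPM for ADAR, 4.46 to 7.78 CPM for DHX58 and 40.3 to 94.7 CPM for OAS2, all within the range of DOX and MYO. For these genes DOX and MYO did not stand apart from the libraries labelled RemoLV.

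Within groups the members varied together from pig to pig. Over the 19 libraries, after the group means were removed, the mean correlation between pairs of members was 0.48 (435 pairs, 95.4% of them above 0), against 3e-04 over all genes tested. The 30 members are therefore not 30 separate measurements, and the points share library, depth and composition. RSAD2 followed the mean of the other members most closely (r = 0.94), then HERC6 (0.91), IFI44, an interferon-induced cytoplasmic protein (0.87), and HERC5 (0.87). STAT2 (0.37) and IFI35 (0.38) followed it weakly, and TRIM25 ran against it (r = -0.14). RSAD2, HERC6, IFI44 and HERC5, the most in step with the rest, were called in none of the 7 comparisons. IFI6, a small hydrophobic protein of internal membranes, ranged from 37.2 to 196 CPM within DOX alone. PARP9, EPSTI1 and USP18 were likewise called in none.

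IRF9, the DNA-binding subunit of ISGF3, had 4 to 18 counts per library and was not tested. Its summed counts were 29 in DOX, 47 in MYO, 17 in RemoLV, 20 in Hyper and 16 in Control, and MYO5 alone held 18. The ratio of DOX to Control was 1.13 with a 95% counting interval of 0.595 to 2.23, and that of MYO to Control was 2.02 with an interval of 1.12 to 3.82, which does not cover the spread between pigs. Of the genes found by the table of names, UBA7, the enzyme that activates ISG15, had 7 to 17 counts in the DOX and MYO libraries, 21, 18 and 8 in RemoLV, 2, 4 and 4 in Hyper and 1, 7 and 1 in Control. No Hyper or Control library reached the minimum of the filter on low counts, so UBA7 was tested only through the groups where it is high, and no test is given for it. MX2, the neighbour of MX1, had 0.0045 against Control in DOX (edgeR adjusted p = 0.993). SAMD9, which restrains translation in infected cells, was lower in RemoLV with a log2 fold change of -0.81 (SE 0.23, edgeR adjusted p = 0.00794).

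Of the genes upstream of the members, IFNB1 and IFNK, found only through the table of gene names, are listed at 0 in all 19 libraries. So is EGFL7, an endothelial gene found the same way, so these zeros are not read as a level. Among 5 tested interferon receptor genes, 0 were higher and 1 was lower in DOX than in Control, where, as above, 21% of all genes were higher and 21.1% lower. The lower one was IFNGR1 with -0.61 (edgeR adjusted p = 0.0186). Of 16 signalling genes, 6 were higher (37.5%) and 5 lower (31.2%), with IRF8, a factor of myeloid cells, at 1.38 (edgeR adjusted p = 0.000113), PIAS1, a SUMO ligase, at -0.79 (edgeR adjusted p = 0.000119), and PTPN6, a phosphatase of blood cells, at 1.46 (edgeR adjusted p = 0.000396). Of 12 genes of upstream sensing, 4 were higher (33.3%) and 0 lower. IKBKE and TLR9 passed the filter on low counts only with libraries outside Hyper and Control, and 3 of 10 (30%) were higher without them, among them TLR8, a sensor of single-stranded RNA (1.58, edgeR adjusted p = 0.0119) and STING1, the adaptor of cytosolic DNA sensing (0.54, edgeR adjusted p = 0.018).

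Among 30 other interferon-responsive genes, 8 were higher (26.7%) and 2 lower (6.67%) in DOX than in Control, a share of higher genes near the 21% of all genes. In DOX and MYO, 12 (40%) were higher than in Hyper, beside 15.8% of all genes, and 15 (50%) were higher than in the other 3 groups, beside 23.7%. SLFN11, ISG20, CXCL11 and IDO1 passed the filter on low counts only with libraries outside Hyper and Control, and without them 7 (26.9%), 9 (34.6%) and 12 (46.2%) of 26 were higher in these comparisons. Those of the 26 higher in DOX than in Control were led by LGALS3BP (1.45, edgeR adjusted p = 0.000853) and DDX60 (1.36, edgeR adjusted p = 0.00207). Of 13 genes of antigen presentation, 6 were higher (46.2%) and 0 lower, with TAPBP (0.52, edgeR adjusted p = 0.00195), PSMB8 (0.72, edgeR adjusted p = 0.00294) and TAP1 (0.85, edgeR adjusted p = 0.00454) first. In DOX and MYO against Hyper, 7 of the 13 were higher (53.8%, against 15.8% of all genes) and 0 lower.

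Markers of other cells are given for DOX against Control, where 21% of all genes tested were higher and 21.1% lower. They are also given for DOX and MYO against Hyper, where 15.8% were higher and 16.9% lower. Of the 3 erythroid markers tested, 3 were lower in DOX than in Control, with a median log2 fold change of -2.38. Of 6 cardiomyocyte markers 4 were lower and 2 higher. Of 5 endothelial markers 2 were lower and 1 higher (20%, near the share of all genes), and of 5 atrial markers 2 were higher. The 6 fibroblast markers summed to 4050 to 5910 CPM in DOX and 3930 to 5520 CPM in MYO, above the 1350 to 3350 CPM in Hyper and the 1770 to 2980 CPM in Control, and 2 were higher and 0 lower both in DOX against Control and in DOX and MYO against Hyper. The 10 macrophage markers summed to 257 to 543 CPM in DOX, 219 to 346 CPM in MYO, 325 to 332 CPM in RemoLV, 193 to 290 CPM in Hyper and 253 to 341 CPM in Control. Of them 7 were higher (70%), or 6 of 9 without the low-count MARCO, and 1 was lower in DOX than in Control, and 5 were higher and 1 lower in DOX and MYO than in Hyper (edgeR). The 10 T and NK cell markers summed to 15.8 to 59.8 CPM in DOX, 19 to 39.7 CPM in MYO, 12.6 to 29.4 CPM in Hyper and 14.7 to 20.2 CPM in Control, and 4 of the 9 tested (44.4%) were higher in DOX than in Control. No marker on either list was at 0 in all libraries of a group. In DOX against MYO all 10 macrophage markers had a positive log2 fold change and 0 were called, as with the members. In bulk tissue, more cells of a type and more RNA per cell cannot be told apart, and the part of these cells in the members' levels was not tested.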

How the data were processed

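LV tissue of 19 pigs (DOX 5, MYO 5, RemoLV 3, Hyper 3, Control 3) was profiled by poly(A) RNA-seq. The authors aligned read pairs to Sscrofa11.1 with STAR and counted them on Ensembl genes, strand-specifically, with HTSeq 0.11.1, and deposited these raw counts. A second table of the authors, deposited as log2-like transformed expression, was used only to match its columns to the count files and to find symbols. Its log2 fold changes and adjusted p-values are the authors' DESeq2 comparisons as deposited and were not used. Totals were 9527710 to 20370209 counts per library (median 14527230).

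The members and lists of genes were chosen with earlier results of these data known. In R 4.3.3, edgeR 4.0.16 scaled counts by TMM, kept genes by filterByExpr and fitted 1 quasi-likelihood model of the 5 groups. Adjustment was Benjamini-Hochberg over 13552 genes, with a call at 0.05. CPM are TMM-scaled, and log2 CPM for library means used a prior count of 2. All 37 members are named, with values per library for the members of lowest p in each comparison, for the extremes of the called ones and for ISG15, STAT2, IRF9, MX1, IFIT1, RSAD2 where measured. Intervals of ratios of summed counts are exact binomial at 95% and cover counting error only. Alternatives were DESeq2 1.42.0, RLE scaling, other filters, a replicate block, the table names, the study's DEG rule and leaving out each library, and, added after the files were read, library totals alone and leaving out both exchanged libraries. The procedure was tested on simulated data. Promoter windows came from RefSeq on Sscrofa11.1.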

Additional observations from a re-analysis of the deposited data

Results flagged for a closer look

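Within the groups of 5 libraries, 2 of 60 combinations of member and group held a library far from its 4 companions, at the gap that chance alone exceeds in about 1 of 20 groups. DDX58, the helicase that reads foreign RNA ends, stood at 34.1 CPM in MYO5, with the other MYO libraries at 15.1 to 18.4 CPM. IFIT3 stood at 42.5 CPM in DOX4, with the other DOX libraries at 58.5 to 66.6 CPM. MYO5 and DOX4 are also the libraries with the highest member level in MYO and the lowest in DOX. Groups of 3 libraries were not examined in this way.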

How the results depend on the processing

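With the DEG rule (adjusted p of at most 0.05 and a log2 fold change of at least 2 in size), 1 member, the low-count OASL, was higher in DOX than in Control, 1, again OASL, in DOX and MYO against Hyper and 1, OASL, against the other 3 groups, beside 1.59%, 0.863% and 0.642% of all genes, while in MYO and in RemoLV 0 were higher and 0 lower than in Control, beside 1.23% and 1.24%, and 4.12% and 2.22%. Scaled by library totals alone, the median log2 fold change of all genes moved to 0.45, 0.44, 0.52 and 0.17 in DOX, MYO, RemoLV and Hyper against Control, to 0.29 in DOX and MYO against Hyper and to 0.21 against the other 3 groups, and the counts of higher members became 21, 13, 13, 0, 14 and 17, with 0 lower in MYO and 1 in RemoLV, while 41.5%, 40.6%, 45.6%, 0%, 28.7% and 37.1% of all genes were higher. Of all genes, 5.56% were then lower in MYO and 7.66% in RemoLV. The members' median above that of all genes remained 0.54 in DOX against Control and 0.32 in DOX against MYO. Without both exchanged libraries, 6 members were higher in DOX than in Control, beside 20.1% of all genes, and the median of DOX against MYO was 0.094.

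Under the table names, 1 member was higher in DOX than in Control (median 0.10), 2 were higher and 0 lower in MYO (median 0.17), 3 were higher and 6 lower in RemoLV (median -0.38, 7 of 30 positive), 2 were higher and 3 lower in Hyper (median -0.44, 5 positive), and DOX against MYO had a median of -0.10 with 9 positive. The shares of all genes higher and lower were 15% and 14.6% in DOX, 14.8% and 14.4% in MYO, 24% and 23.2% in RemoLV and 18.7% and 17.2% in Hyper. Among members called under either set of names, signs turned for IFIT2 (to 1.11 for DOX, 1.33 for MYO, 1.77 for RemoLV and 1.17 for Hyper), ADAR (-0.11, -0.0125, -1.10 and -1.03 in the same order), CMPK2 in DOX (-0.0938), IFIT5 in MYO (0.12) and RemoLV (0.50), DHX58 (-1.67), ZBP1 (-1.15), OAS2 (-1.54) and IFI44L (-0.77) in RemoLV, STAT2 in RemoLV (-0.68) and Hyper (-0.60), and IFIT3 in RemoLV (0.90) and Hyper (0.71). In RemoLV and Hyper this follows from the exchange of RemoLV and Control as whole groups. In DOX and MYO, DOX5 and MYO1 change places as well, and these exchanges were not fitted separately. No sign of a called member turned under any other alternative.

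Leaving out each library in turn gave 4 to 16 higher and 0 to 1 lower members in DOX against Control, 2 to 6 and 1 to 3 in MYO, 4 to 9 and 1 to 3 in RemoLV, 9 to 20 positive members in Hyper, 1 to 9 higher in DOX and MYO against Hyper and 8 to 15 against the other 3 groups. The shares of all genes higher moved too, over 13% to 22.8% in DOX, 13.2% to 22.9% in MYO and 16.8% to 26.8% in RemoLV. They went over 8% to 17.8% against Hyper and 21% to 25% against the other 3 groups. The shares lower went over 14.4% to 21.9% in DOX, 14.9% to 23.1% in MYO and 18.9% to 26% in RemoLV. In Hyper against Control, with 0 members called throughout, 0% to 9.32% of all genes were higher and 0% to 9.08% lower. The replicate numbers do not pair the pigs: of 32 same-numbered pairs, 4 had a correlation above 0.1 (median 0.0069). With a replicate block, 4 members were higher in DOX and MYO than in Hyper and 4 than in the other 3 groups, beside 12.8% and 18.9% of all genes. RemoLV, Hyper and Control held 3 libraries each, and OASL had 1 count in Control.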
